A study of Mus musculus with 20 samples.

Results

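The miR-99b, let-7e and miR-125a cluster is a set of 3 microRNA (miRNA) hairpins processed from 1 transcript. It was followed in the miRNA count tables of a female and a male mouse embryonic stem cell line while the cells were turned into epiblast stem cells. Its members were taken by name as both arms of the 3 hairpins, mmu-miR-99b-5p, mmu-miR-99b-3p, mmu-let-7e-5p, mmu-let-7e-3p, mmu-miR-125a-5p and mmu-miR-125a-3p. These are 6 of the 1063 miRNAs listed in both tables, and all 6 passed the filter on low counts that left 813 for testing. The PGK (female) and E14 (male) lines were sampled at day 0 in 2i medium, which holds embryonic stem cells in the naive state with inhibitors of Mek and Gsk3. They were then moved to fibronectin-coated wells and N2B27 medium to which Activin A and Fgf2 were added, which leads towards primed epiblast stem cells. Cells were passaged with Accutase after day 4 and every 2 days, and libraries cover day 4, day 10, a stage at 19 to 23 days and a stage at 27 to 30 days. Each of the 10 groups of line and stage held 2 libraries, called replicates 2 and 3 after the experiment names diff2 and diff3. The late samples were taken at days 23 and 29 (replicate 2) and days 21 and 29 (replicate 3) in PGK, and at days 21 and 27 (replicate 2) and days 19 and 30 (replicate 3) in E14. No group carried an engineered allele in the labels, and each sex is represented by 1 line, so that line and sex cannot be told apart.

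A hairpin precursor is cut by Drosha and Dicer into a 5p and a 3p arm, and the arm that is loaded into Argonaute represses messenger RNAs that match its seed, the bases near its 5′ end. The let-7 family promotes differentiation, and in mouse embryonic stem cells the RNA-binding protein Lin28a binds the terminal loop of let-7 precursors at a GGAG motif and blocks their maturation. The miR-99 and miR-125 families are not let-7 relatives, although in mouse and human they lie beside let-7 genes in several clusters, and miR-125 is known to repress Lin28 messenger RNA. Because the 3 hairpins are cut from a common transcript, a comparison of their mature arms within a library asks whether the let-7 member kept step with its neighbours.

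In GENCODE M21 (GRCm38) the hairpins lie on the plus strand of chromosome 17, at 17830188 to 17830257 (Mir99b), 17830352 to 17830444 (Mirlet7e) and 17830812 to 17830879 (Mir125a), a span of 692 bases. The host gene Spaca6, a sperm acrosome gene, runs from 17827158 to 17843009 on the same strand, and 2 of its 16 annotated transcripts start upstream of the cluster. Mir99b and Mirlet7e overlap no Spaca6 exon, and Mir125a overlaps an exon of 1 transcript. The antisense miRNA gene Gm25927 (17830343 to 17830459) covers Mirlet7e, and the labels do not say whether the counting used strand. The mature arms, which show that the hairpins carry unrelated seeds, are given here from RefSeq (GRCm38.p6), 5′ to 3′, with the seed (bases 2 to 8) in capitals.
mmu-miR-99b-5p: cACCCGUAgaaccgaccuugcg
mmu-let-7e-5p: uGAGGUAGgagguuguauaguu
mmu-miR-125a-5p: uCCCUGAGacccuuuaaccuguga
mmu-miR-99b-3p: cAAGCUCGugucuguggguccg
mmu-let-7e-3p: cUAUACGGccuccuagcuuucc
mmu-miR-125a-3p: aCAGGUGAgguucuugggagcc
mmu-let-7a-5p: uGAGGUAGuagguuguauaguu

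The last sequence is shown because it is the nearest relative of let-7e-5p. The 2 differ by G9U alone (position counted from the 5′ end, let-7e base first), and the sources used here do not say how the counting treated reads with a mismatch. The miR-99b-5p seed is shared with miR-99a-5p and miR-100-5p. The miR-125a-5p seed is shared with miR-125b-5p, miR-351-5p, miR-6367 and miR-6394, and the let-7e-5p seed with the whole let-7 family and miR-1961. The miR-99b precursor was not among the hairpin sequences used here, so that its loop was not searched for GGAG. The loop between the arms of the let-7e and miR-125a precursors is shown next, with GGAG in capitals, because the loop is the part that Lin28a contacts.
let-7e loop: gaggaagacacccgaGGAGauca
miR-125a loop: ggacguccaggguc

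GGAG, searched on the strand of the precursor, was in the loop of 8 of 11 let-7 family hairpins and in 52 of all 644 hairpins compared (8.07%). The let-7 hairpins without it in this window were Mirlet7b, Mirlet7c-2 and Mir98.

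The libraries held 7112394 to 18031067 miRNA counts, so that 3 counts, the limit that a count of 0 allows, corresponded to 0.166 to 0.422 CPM, the counts of a library scaled to a common total. Intervals from counting were not the limit for the members, since the scarcest arm, let-7e-3p, had 57 to 256 counts. Levels are CPM scaled by edgeR's TMM factors. The miR-302 set that marks primed cells (5 miRNAs) summed to 8825 to 56185 CPM of plain totals at days 4 to 30, against 134.5 to 495 CPM at day 0. The miR-290 set of pluripotent cells (6 miRNAs) summed to 46352 to 139503 CPM at days 4 to 30, against 150820 to 222510 CPM at day 0. The day 0 samples of experiment diff3 in both lines carry a label of differentiating cells, and were grouped by their day label. Sets that mark other cells were also summed, with days 4 to 30 given before day 0. Neural miRNAs (3) took 212 to 1518 CPM against 139 to 255 CPM, and mesenchymal ones (5) 356 to 4204 against 2893 to 7378 CPM. Blood miRNAs (5) took 8.51 to 156 against 71.3 to 571 CPM, muscle ones (3) 4.83 to 49.6 against 0.444 to 6.19 CPM, and endodermal ones (3) 317 to 956 against 983 to 2935 CPM. At day 0, the mesenchymal miR-214-3p and the muscle miR-206-3p were at 0 in all 4 libraries. The mesenchymal sum is carried by miR-143-3p and hides members that moved the other way: in late PGK 3 of the 5 (miR-199a-3p, miR-199a-5p and miR-214-3p) were higher than at day 0 and 2 (miR-143-3p and miR-145a-5p) lower, and in late E14 1 (miR-214-3p) was higher and 0 lower (edgeR, adjusted over all miRNAs). Neural and blood sums hide such members as well. In E14, 0 of 3 neural miRNAs were higher and 1 was lower at days 19 to 23. At days 27 to 30, 2 were higher and 1 lower. Of 4 blood miRNAs tested in E14, 1 was higher and 0 lower at day 4. On day 10, 1 was higher and 2 lower. In these comparisons 34.3%, 40.7%, 43.4% and 33.7% of all tested miRNAs were called. In PGK, 0 neural miRNAs were lower and 0 blood miRNAs higher at any later stage. The part of these sets in the results was not tested, and in bulk samples fewer cells of a type and less RNA per cell cannot be told apart.

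The neighbours of let-7e rose over differentiation, while let-7e-5p dipped at day 4 and was back near its day 0 level by days 19 to 23. miR-99b-5p is the most abundant arm of the cluster in counts. In PGK its replicates 2 and 3 had 3126 and 6827 CPM at day 0, 6553 and 7699 at day 4, 11969.5 and 19001 on day 10, 32723 and 17211 in the stage of 19 to 23 days, and 24942 and 16769 at days 27 to 30. In E14 they had 4641 and 2976 CPM at day 0, 10462 and 12296 at day 4, 18797 and 15149.6 on day 10, 21971 and 16381 in the stage of 19 to 23 days, and 26636 and 16514 at days 27 to 30. Every library from day 10 on exceeded every day 0 library of its line, and in PGK the day 4 and day 0 values overlapped.

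miR-125a-5p, the other neighbour's abundant arm, was also higher at later stages. In PGK it had 1962 and 2544 CPM at day 0, 3202 and 3064 at day 4, 4549.8 and 7002 on day 10, 9799 and 6774 in the stage of 19 to 23 days, and 8622 and 7549 at days 27 to 30. In E14 it had 1757 and 1464 CPM at day 0, 4709.6 and 3523 at day 4, 7325 and 6234 on day 10, 7385 and 6986 in the stage of 19 to 23 days, and 7687 and 7786 at days 27 to 30. No later library overlapped the day 0 libraries of its line.

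mmu-let-7e-5p carries the let-7 seed. In PGK it had 571 and 600.4 CPM at day 0, 249 and 209.8 at day 4, 265 and 469 on day 10, 561 and 499.9 in the stage of 19 to 23 days, and 513 and 699.5 at days 27 to 30. In E14 it had 313 and 303 CPM at day 0, 127 and 143 at day 4, 307 and 224 on day 10, 320.3 and 314 in the stage of 19 to 23 days, and 449 and 497 at days 27 to 30. The day 4 libraries lay below the day 0 libraries in both lines, without overlap. Its 3p partner, let-7e-3p, had 17.5 and 14.5 CPM at day 0, 7.86 and 6.43 at day 4 and 8.02 to 27.8 from day 10 on in PGK, and 8.13 and 5.55 CPM at day 0, 10.8 and 8.45 at day 4 and 10.2 to 19.01 from day 10 on in E14.

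**Figure D1:**
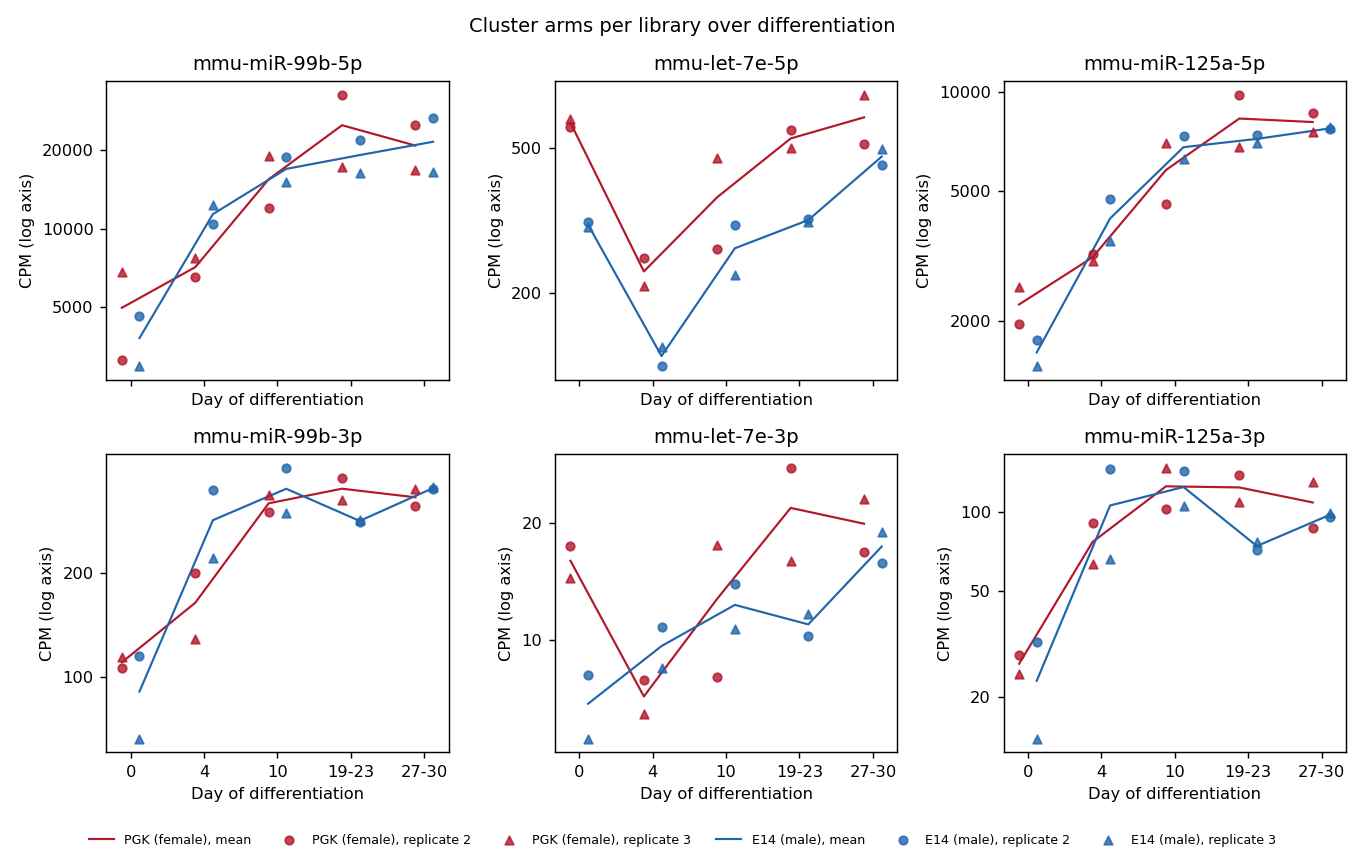
CPM (TMM-scaled, log axis) of the 6 cluster arms in each library by day of differentiation, PGK in red and E14 in blue; lines join the means of 2 libraries, circles are replicate 2 and triangles replicate 3. The arms of miR-99b and miR-125a climb after day 0, and let-7e-5p has its lowest values at day 4 in both lines.

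Each stage was tested against day 0 with edgeR's quasi-likelihood test on all 20 libraries, with p-values adjusted by the Benjamini-Hochberg method over the 813 miRNAs of a comparison. Changes are log2 ratios of the later stage to day 0 with their SE, and the 4 comparisons of a line share its 2 day 0 libraries. At day 4 in PGK, 1 arm was higher and 2 were lower, where 39.1% of all tested miRNAs were called. let-7e-5p averaged 229.6 ± 28.02 CPM at day 4 and 586 ± 20.5 CPM at day 0 (SD, n = 2 each), and fell by 1.35 ± 0.34 (adjusted p = 0.00570 by edgeR). let-7e-3p averaged 7.14 ± 1.01 CPM at day 4 and 15.99 ± 2.15 CPM at day 0 and fell by 1.16 ± 0.44 (adjusted p = 0.0466 by edgeR). miR-125a-3p averaged 76.8 ± 18.95 CPM at day 4 and 26.7 ± 3.15 CPM at day 0 and rose by 1.52 ± 0.46 (adjusted p = 0.0172 by edgeR). miR-99b-5p, miR-99b-3p and miR-125a-5p had changes of 0.52 ± 0.42, 0.57 ± 0.36 and 0.48 ± 0.30 that did not pass.

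These PGK calls rest on few libraries. Without PGK day 4 replicate 3 neither let-7e arm passed (changes of -1.23 and -1.02, adjusted p = 0.0575 and 0.209 by edgeR), and the let-7e-3p call was also lost without PGK day 0 replicate 2, PGK day 4 replicate 2 and each late E14 library of days 27 to 30. With the experiment as a block within each line, let-7e-3p had an adjusted p of 0.0566 by edgeR. The miR-125a-3p call was lost in 8 of the 20 fits that each left out 1 library, among them both PGK day 0 libraries and PGK day 4 replicate 2. The rest of these fits left out a library outside the comparison. They were those without either PGK library of days 27 to 30, E14 day 10 replicate 3 or either E14 library of days 19 to 23. The change was 1.16 in each of them, so that the call also depends on the scaling and fit shared by all libraries.

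At day 4 in E14, 4 arms were higher and 1 was lower, where 43.4% of tested miRNAs were called. let-7e-5p averaged 134.8 ± 11.6 CPM at day 4 and 308 ± 7.14 CPM at day 0 (SD, n = 2 each), and fell by 1.19 ± 0.34 (adjusted p = 0.0105 by edgeR). miR-99b-5p and miR-99b-3p rose by 1.58 ± 0.43 and 1.65 ± 0.37 (adjusted p = 0.00907 and 0.00276 by edgeR). miR-125a-5p and miR-125a-3p rose by 1.35 ± 0.30 and 2.19 ± 0.47 (adjusted p = 0.00266 and 0.00213 by edgeR). The change of let-7e-3p, 0.50 ± 0.43, did not pass. Without E14 day 0 replicate 3, a library with the conflicting cell label, 1 arm remained higher, with changes of 1.04, 1.03 and 0.96 for miR-99b-5p, miR-99b-3p and miR-125a-5p that missed the threshold. The miR-99b-5p call was also lost without E14 day 4 replicate 3 (1.12). The let-7e-5p call in E14 was kept in all 20 fits with 1 library left out.

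From day 10 on, the 4 arms of miR-99b and miR-125a were higher than at day 0 in both lines. In PGK 4 arms were higher and 0 lower in each of the 3 stages, where 40.1% of tested miRNAs were called on day 10, 40.5% in the stage of 19 to 23 days and 43.5% in the last stage. In E14 4, 4 and 5 arms were higher and 0 lower, where 33.7%, 34.3% and 40.7% were called. At days 27 to 30, miR-99b-5p averaged 20856 ± 5779 CPM in late PGK and 4977 ± 2617 CPM at day 0, and 21575 ± 7157 CPM in late E14 and 3808 ± 1177 CPM at day 0 (SD, n = 2 each). miR-125a-5p averaged 8085 ± 759 CPM in late PGK and 2253 ± 411 CPM at day 0, and 7737 ± 70.1 CPM in late E14 and 1610.5 ± 207 CPM at day 0. The late changes of miR-99b-5p were 2.07 ± 0.44 in PGK and 2.502 ± 0.45 in E14 (adjusted p = 0.00158 and 0.000666 by edgeR), and those of miR-125a-5p 1.84 ± 0.31 and 2.26 ± 0.31 (adjusted p = 0.000210 and 6.12e-05 by edgeR). Of the less abundant arms, miR-99b-3p rose by 1.59 ± 0.37 in late PGK and 1.96 ± 0.37 in late E14, and miR-125a-3p by 2.02 ± 0.47 and 2.08 ± 0.47 (adjusted p from 0.000938 to 0.00329 by edgeR).

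let-7e-5p did not pass at any of these stages. Its changes in PGK were -0.68 ± 0.33 at day 10, -0.14 ± 0.33 at days 19 to 23 and 0.05 ± 0.33 at days 27 to 30. In E14 they were -0.21 ± 0.33, 0.04 ± 0.33 and 0.62 ± 0.33, with adjusted p from 0.120 to 0.940 by edgeR over both lines. Which side of the threshold it falls on depends on the setting. Without PGK day 10 replicate 3 the PGK day 10 change was -1.24 and passed (adjusted p = 0.0249 by edgeR), as it did with DESeq2 (-0.71, adjusted p = 0.0429). In late E14 the rise passed with plain library totals (1.28, adjusted p = 0.0226 by edgeR) and with DESeq2 (0.69, adjusted p = 0.0480). At these stages let-7e-3p passed in late E14, with 17.4 ± 2.28 CPM there and 6.84 ± 1.82 CPM at day 0 and a rise of 1.35 ± 0.44 (adjusted p = 0.0235 by edgeR). That call was lost without E14 day 0 replicate 3 and without either late E14 library, and with plain totals let-7e-3p also passed at E14 days 19 to 23 (1.40, adjusted p = 0.0365 by edgeR). Of the neighbours, miR-99b-5p lost its PGK day 10 call without PGK day 0 replicate 2 or PGK day 10 replicate 3 (adjusted p = 0.0557 and 0.0688 by edgeR), and miR-125a-3p its E14 call at days 19 to 23 without E14 day 0 replicate 3 or E14 days 19 to 23 replicate 3 (1.09 and 1.46).

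**Figure D2:**
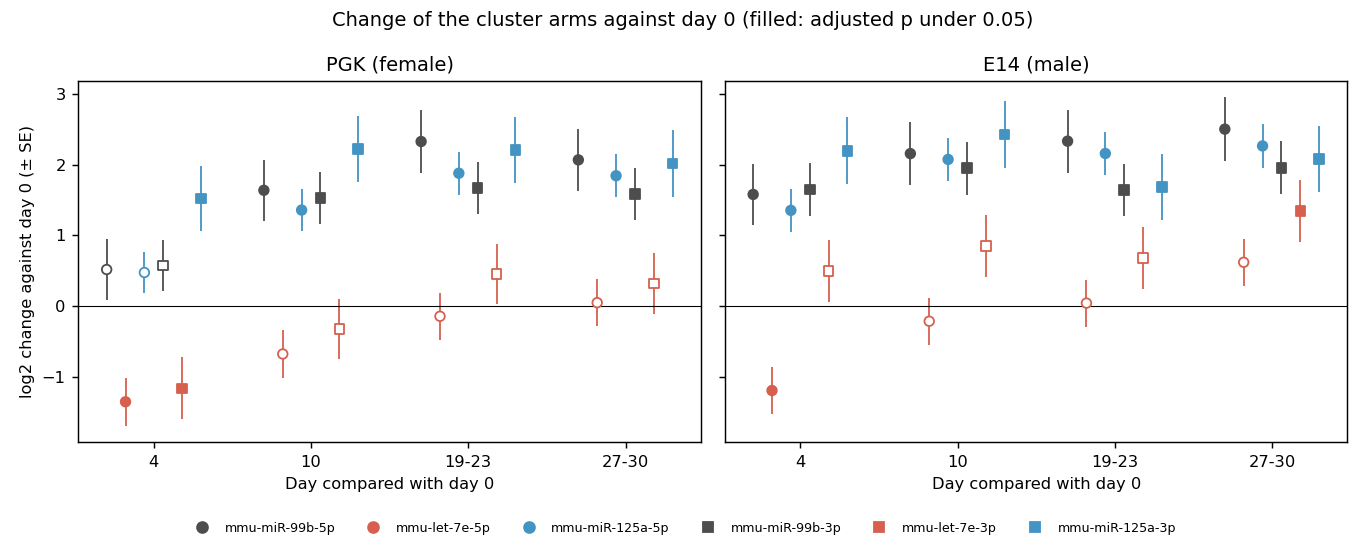
log2 change of each arm against day 0 with its SE (edgeR), PGK left and E14 right; circles are 5p and squares 3p arms, and filled symbols have an adjusted p under 0.05. Filled symbols of let-7e lie below 0 at day 4 and above 0 for let-7e-3p in late E14, and those of both neighbours lie above 0 from day 10 on.

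Between consecutive later stages, 0 of the 6 arms passed in either line. Day 10 against day 4 had 6.52% of tested miRNAs called in PGK and 8.12% in E14. The changes of the 6 arms were 0.68 to 1.12 in PGK and 0.23 to 0.98 in E14, all positive, and 3 and 2 of them had an unadjusted p under 0.05 by edgeR. The 2 in E14 were let-7e-5p (0.98 ± 0.33, adjusted p = 0.0845 by edgeR) and miR-125a-5p (0.72 ± 0.30, adjusted p = 0.141 by edgeR). These counts depend on the setting, with 2 arms passing by DESeq2 in each line. For the 2 steps after day 10, 0 of the 6 arms had an unadjusted p under 0.05 by edgeR. Days 19 to 23 against day 10 had 0.369% called in PGK and 0.246% in E14, and days 27 to 30 against days 19 to 23 had 0% in each, where 22 and 37 miRNAs had an unadjusted p under 0.05 by edgeR and DESeq2 called 0 and 3.

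To compare let-7e with its neighbours without any scaling between libraries, the log2 ratio of 2 arms was taken within each library and tested between the 16 later and the 4 day 0 libraries. An exact two-sided permutation test permuted the stage labels within each line (2025 arrangements, smallest possible p 0.000494), and p-values were adjusted over the 9 ratios. Ratios between different arms also carry differences in cloning efficiency, so that only their change is read. let-7e-5p over miR-99b-5p was -5.59 ± 0.56 in later libraries (SD, n = 16) and -3.29 ± 0.61 at day 0 (SD, n = 4). The difference was -2.31 (adjusted p = 0.00111, exact permutation test). The later values, -6.43 to -4.58, did not overlap the day 0 values, -3.89 to -2.45, and 16 of 16 later libraries lay below the day 0 mean of their line. Within the lines the difference was -2.26 in PGK and -2.35 in E14.

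let-7e-5p over miR-125a-5p was -4.20 ± 0.46 in later libraries (SD, n = 16) and -2.16 ± 0.30 at day 0 (SD, n = 4), a difference of -2.05 (adjusted p = 0.00111, exact permutation test). These ranges did not overlap either, -5.22 to -3.43 later and -2.49 to -1.78 at day 0. miR-125a-5p over miR-99b-5p, the ratio of the neighbours, was -1.39 ± 0.24 later and -1.13 ± 0.36 at day 0, a difference of -0.26 that did not pass (adjusted p = 0.138, exact permutation test). It passed without PGK day 0 replicate 3 (-0.45, adjusted p = 0.0381, exact permutation test). In shares of the 3 abundant arms, let-7e-5p made up 4.67 to 10.1% of their summed counts at day 0, 0.828 to 2.49% at day 4 and 1.04 to 2.80% from day 10 on.

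The less abundant arms gave the same direction. let-7e-3p fell by 1.26 relative to miR-99b-3p and by 1.76 relative to miR-125a-3p (adjusted p = 0.00111 each, exact permutation test), and the second did so without overlap. miR-125a-3p over miR-99b-3p rose by 0.50 (adjusted p = 0.00815, exact permutation test), a call that was lost without E14 day 0 replicate 3 (0.39, adjusted p = 0.0704, exact permutation test). Within hairpins the 5p arm was 11.7 to 54.6 times as abundant as the 3p arm for let-7e, 29.3 to 86.8 times for miR-99b and 32.6 to 105 times for miR-125a. let-7e-5p over let-7e-3p fell by 0.69 (adjusted p = 0.00815, exact permutation test), by 0.33 in PGK and 1.05 in E14, and lost its call without E14 day 0 replicate 3 (-0.56). The ratios of 5p to 3p in miR-99b and miR-125a changed by 0.35 and -0.41, and neither passed (adjusted p = 0.181 each, exact permutation test).

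The 16 later libraries come from 4 differentiation series, 1 for each line and experiment, and whether the libraries of a series were taken from a single culture is not stated. With labels permuted within each line and experiment as a replicate block (625 arrangements, smallest possible p 0.0016), the 4 ratios of let-7e arms to neighbours had an adjusted p of 0.0036 each, exact permutation test. Both permutations treat the time points of a series as exchangeable libraries, so they do not account for dependence between days of one culture. Between days 10 to 30 and day 4, let-7e-5p over miR-99b-5p differed by 0.11 (p = 0.663, exact permutation test) and let-7e-5p over miR-125a-5p by 0.19 (p = 0.306, exact permutation test). None of the 9 ratios passed after adjustment in that comparison. Ratios with a 3p arm of miR-125a had an unadjusted p under 0.05 by the exact permutation test. let-7e-3p over miR-125a-3p differed by 0.56 (p = 0.0446), miR-125a-3p over miR-99b-3p by -0.35 (p = 0.0140) and miR-125a-5p over miR-125a-3p by 0.71 (p = 0.0115, exact permutation tests).

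**Figure D3:**
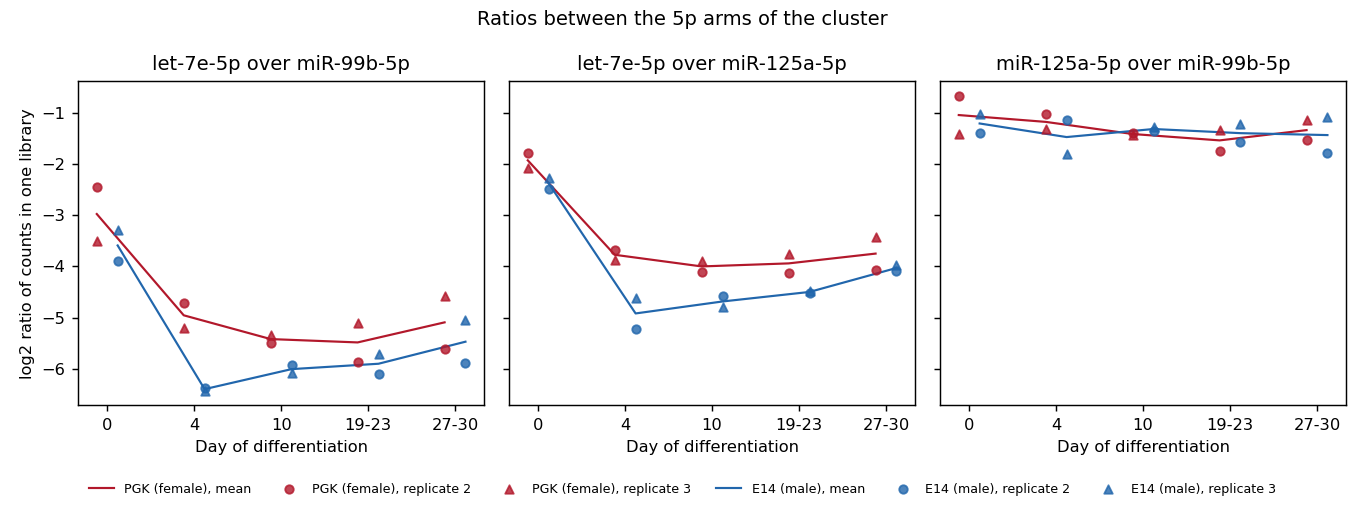
log2 ratios of counts between the 5p arms within each library by day, PGK in red and E14 in blue; lines join means of 2 libraries. Both ratios with let-7e-5p on top drop between day 0 and day 4 and the ratio of the 2 neighbours stays between -1.80 and -0.67.

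Most of the let-7 family fell at every later stage. Of 9 other let-7 5p arms (let-7a, b, c, d, f, g, i, k and miR-98) 8 were tested, since let-7k had at most 1 count in a library. At day 4 against day 0, 7 of the 8 were lower and 0 higher in PGK, with a median change of -4.42 beside 0.03 over all tested miRNAs, and 6 were lower and 0 higher in E14, with a median of -4.46 beside 0.09. At days 27 to 30, 8 were lower in PGK (median -4.65) and 6 in E14 (median -3.88), beside medians of 0.01 and 0.05 over all tested miRNAs. Calls in either direction took 39.1% of all tested miRNAs in PGK and 43.4% in E14 at day 4. At days 27 to 30 they took 43.5% in PGK and 40.7% in E14. Of 11 let-7 3p arms besides let-7e-3p, 10 were tested, of which let-7a-1-3p and let-7c-2-3p have the same mature sequence and the same count in 19 of 20 libraries. Counting these as 1 arm, 8 of 9 were lower and 0 higher at day 4 in each line. At days 27 to 30, 8 were lower and 1, let-7c-1-3p, was higher in PGK, and 7 were lower and 0 higher in E14. let-7a-5p, the 1-base relative of let-7e-5p, had 238 to 262 CPM at day 4 and 4776 to 5625 CPM at day 0 in PGK, and 89.9 to 92.4 CPM at day 4 and 1551 to 2257 CPM at day 0 in E14. Its late changes were -4.20 ± 0.44 in PGK and -3.60 ± 0.42 in E14 (edgeR).

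In late E14, 2 of the 8 relatives had no called drop, let-7b-5p and let-7c-5p. let-7b-5p had changes of -1.92 ± 0.78 at day 4 (adjusted p = 0.0575 by edgeR) and -0.43 ± 0.73 at days 27 to 30 (adjusted p = 0.670 by edgeR) in E14. let-7c-5p had changes of 0.71 ± 0.63 at day 4 and 0.95 ± 0.63 at days 27 to 30 that did not pass there, while in PGK its late change was -1.97 ± 0.64 (adjusted p = 0.0219 by edgeR). Differences in change between let-7e-5p and single relatives were not tested.

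let-7e-5p held a larger part of the family's counts at later stages. It made up 1.23 to 1.59% of all let-7 5p counts at day 0, 8.36 to 10.9% at day 4 and 20.2 to 35.7% from day 10 on. By mean CPM it ranked 8 of 9 in PGK and 7 of 9 in E14 at day 0, and 2 of 9 in both lines at days 27 to 30. Its counts were 10.7 to 20.2% of those of let-7a-5p at day 0, 88.2 to 159% at day 4 and 204 to 385% from day 10 on. The 2 arms differ by G9U alone, and the part of misassigned let-7a reads in let-7e-5p was not tested. The family's 5p arms took 0.0837 to 0.332% of all counts from day 4 on, against 1.70 to 4.15% at day 0.

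**Figure D4:**
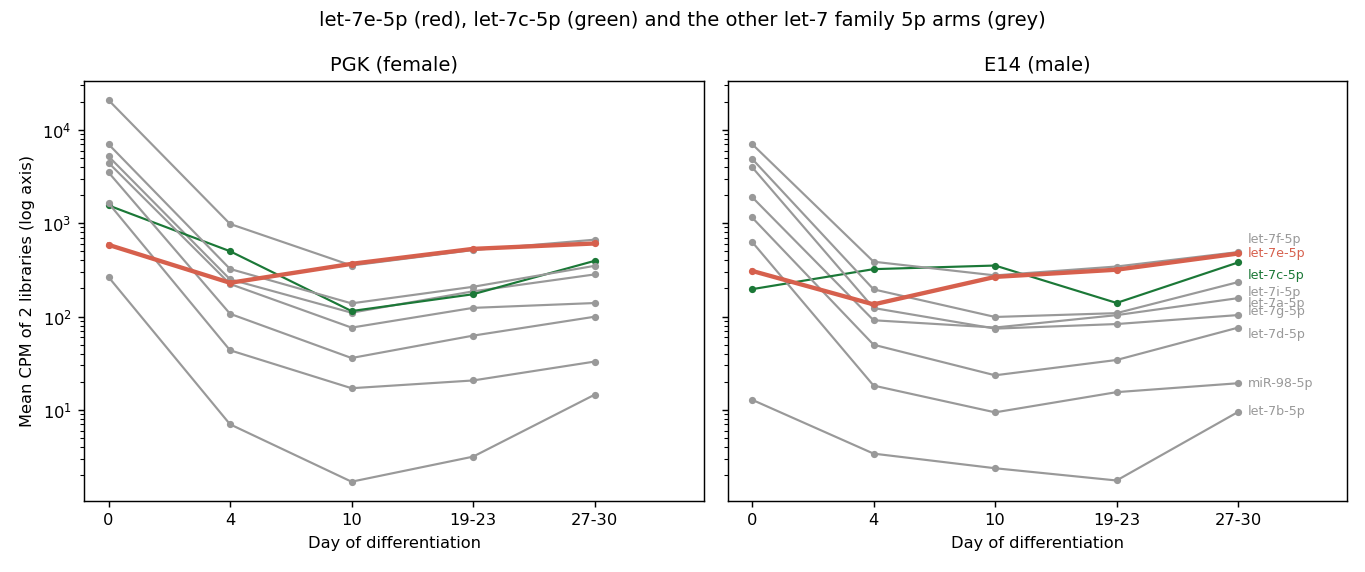
Mean CPM of 2 libraries (TMM-scaled, log axis) of 9 let-7 family 5p arms by day, PGK left and E14 right, with let-7e-5p in red, let-7c-5p in green and the other arms in grey. Most grey lines fall steeply between day 0 and day 4, and let-7e-5p ranks 2 of 9 at days 27 to 30 in both lines.

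Relatives of miR-99b and miR-125a in the paralogous clusters were called mostly at the later stages. Of 9 arms (miR-99a, miR-100 and miR-125b with let-7c-1-3p and let-7a-2-3p) 7 were tested. Without the let-7 arms, 6 were tested. At day 4, 1 of these was higher in PGK and 0 in E14, and 0 were lower, where 39.1% and 43.4% of all tested miRNAs were called in either direction. At days 27 to 30, 5 were higher in PGK and 6 in E14, and 0 were lower, where 43.5% and 40.7% were called. The 1 that missed in late PGK was miR-100-5p (2.54 ± 1.02, adjusted p = 0.0546 by edgeR). let-7c-1-3p was also higher in late PGK (7.66 ± 2.21, adjusted p = 0.0173 by edgeR). miR-125b-5p, which shares the miR-125a-5p seed, had 359 and 362 CPM in late PGK and 12.6 and 13.3 CPM at day 0, and 105 and 436 CPM in late E14 and 3.29 and 23.1 CPM at day 0. Several of these arms had counts at or near 0 at day 0, so that medians of their fitted changes are not given.

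Between the lines 1 of the 6 arms passed, about the share over all tested miRNAs (18.5%), and the call was not stable. That arm, let-7e-5p, was higher in PGK than in E14 by 0.65 ± 0.15, averaged over the 5 stages (adjusted p = 0.0101 by edgeR). Mean CPM was higher in PGK at every stage, 586 and 308 at day 0, 229.6 and 134.8 at day 4, 367 and 266 on day 10, 531 and 317 in the stage of 19 to 23 days, and 606 and 473 at days 27 to 30, PGK before E14. Of the other let-7 5p arms, 5 of 8 tested were also higher in PGK. The call was lost with plain library totals (0.52, adjusted p = 0.0743 by edgeR) and in 14 of 20 fits with 1 library left out, where the difference ranged over 0.36 to 0.68. It held only without PGK day 4 replicate 3, PGK day 10 replicate 2, PGK days 19 to 23 replicate 3, E14 day 10 replicate 2 or either late E14 library. The change from day 0 differed between the lines for 0 of 6 arms at day 4, days 19 to 23 and days 27 to 30, where 0%, 0% and 0.369% of tested miRNAs were called. At day 4 and days 19 to 23, 118 and 94 miRNAs had an unadjusted p under 0.05 by edgeR, and DESeq2 called 17 and 37. With a replicate block, 15 miRNAs were called at days 19 to 23 and 20 at days 27 to 30, and 0 of them were cluster arms. Of the arms, let-7e-3p at day 4 alone had an unadjusted p under 0.05 by edgeR.

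Likeness over the 20 libraries was measured as Pearson's r of log2 CPM among 523 miRNAs with a mean of at least 10 CPM. The libraries share stages and scaling, so r is a description. The 5 most like miR-99b-5p were miR-125a-5p (0.97), miR-99b-3p (0.90), miR-375-3p (0.88), miR-674-5p (0.87) and miR-674-3p (0.86). let-7e-5p took place 210 in that order, with an r of 0.19. The 5 most like let-7e-5p were miR-676-3p (0.75), let-7e-3p (0.74), miR-145a-5p (0.72), miR-24-2-5p and miR-3074-2-3p (0.69 each). The last 2 lie over each other on opposite strands (20 bases) and their counts differed by at most 0.942% in a library, so that they are not separate neighbours and strand did not part their reads. In the order of let-7e-5p, miR-125a-5p and miR-99b-5p took places 130 and 144. let-7e-3p stood nearer to the neighbours: in its own order miR-125a-5p took place 8 (0.64) and miR-99b-5p place 21 (0.57), and let-7e-3p took place 77 in that of miR-99b-5p.

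All 6 arms together made up 0.429 to 0.860% of all miRNA counts at day 0, 0.568 to 1.65% at day 4 and 1.48 to 5.35% from day 10 on, and miR-99b-5p held 55.2 to 77.0% of the 3 abundant arms throughout.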

How the data were processed

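Small RNA libraries from Trizol-extracted, DNase-treated RNA were prepared as Illumina directs, per the labels. The deposited tables used here hold raw counts per miRNA and library, made by the authors; the submitters' processing notes name the builds mm10 and GRCm38 and the tools CASAVA 1.8.2 and DESeq2. Which aligner and annotation were used, and how strand and ambiguous reads were handled, is not given in the sources used here. Other deposited tables, normalized or variance-stabilized, were not used.

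Samples were grouped by line and day into 10 groups of 2. The labels do not say whether replicates came from separate cultures, so p-values measure the spread between these libraries. Counts of the 1063 shared miRNAs were fitted with edgeR 4.0.16 (R 4.3.3): TMM scaling, filterByExpr, 1 coefficient per group, quasi-likelihood F tests with 10 residual degrees of freedom and Benjamini-Hochberg adjustment within each comparison at 0.05. Ratios used counts plus 0.5 and exact permutation tests (Python 3.11.15). Both were tested on simulated data. DESeq2 1.42.0, RLE and plain totals, other filters, a replicate block, single lines and each library left out were tried as alternatives.

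The experiment numbers were checked as pairs by correlating deviations from group means. At a given stage, PGK and E14 libraries that carry one experiment number correlated at 0.13 to 0.55 (5 pairs, median 0.39). Different stages of a line correlated at -0.10 to 0.40 (20 pairs, median 0.08). Pairs that differ in line and stage correlated at -0.15 to 0.37 (20 pairs, median 0.12), so that the ranges overlap. Named are the 6 arms, the let-7 relatives and paralogous clusters as lists, and the 5 miRNAs most like miR-99b-5p and let-7e-5p. let-7c-5p and let-7a-5p were singled out after their values were seen. Members, lists and markers were chosen with earlier results of these data known.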

Additional observations from a re-analysis of the deposited data

Results flagged for a closer look

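On the TMM scale, both let-7e arms at 1 stage each lay on opposite sides of their day 0 levels in the 2 lines. Every library of PGK lay on 1 side of day 0 and every library of E14 on the other. For let-7e-5p, at days 19 to 23, both changes were smaller than their SE (-0.14 ± 0.33 in PGK and 0.04 ± 0.33 in E14). With plain library totals, let-7e-5p of PGK at days 19 to 23 had 689 and 600 CPM. These lay above its 478 and 510 CPM at day 0, as in E14. let-7e-3p at day 4 was at 7.86 and 6.43 CPM in PGK, against 17.5 and 14.5 CPM at day 0, and at 10.8 and 8.45 CPM in E14, against 8.13 and 5.55 CPM at day 0. The PGK change minus the E14 change was -1.66 ± 0.62 (adjusted p = 0.283 by edgeR), which did not pass. let-7e-5p at days 19 to 23 averaged 531 and 586 CPM in PGK, later stage first, and 317 and 308 CPM in E14, and the PGK change minus the E14 change was -0.19 ± 0.47 (adjusted p = 0.907 by edgeR). Neither difference passed, and groups of 2 libraries are too small for a check of outlying samples.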

How the results depend on the processing

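The rise of miR-99b and miR-125a from day 10 on and the drop of let-7e relative to both kept their direction in every setting run. Against edgeR's TMM, RLE factors shifted the median change of all miRNAs against day 0 by -0.21 to 0.07 and plain totals by -0.24 to 0.68. Lower arms at PGK day 4 numbered 1 with a replicate block within each line (a pairing added after seeing the data); the plain replicate block changed no count of arms. At PGK day 10, DESeq2 called 1 lower arm. For day 10 against day 4, RLE gave 1 arm in PGK and 2 in E14, plain totals 3 in PGK, a mean of at least 10 CPM 3 and 1, and DESeq2 2 and 2, against 0. For the mean over stages between lines, plain totals gave 0. let-7e-5p, near no change, turned sign at PGK days 19 to 23 with plain totals (0.38), at late PGK with RLE (-0.0393), DESeq2 (-0.0392) and each line fitted alone (-0.0363), and at E14 days 19 to 23 with each line alone (-0.0135); let-7e-3p at PGK day 10 did so with plain totals (0.0166). In E14 alone (45 arrangements, smallest possible p 0.0222) the ratios of let-7e-5p to miR-99b-5p and miR-125a-5p were -2.35 and -2.15. Those of let-7e-3p to miR-99b-3p and miR-125a-3p were -0.98 and -1.33. miR-125a-3p to miR-99b-3p was 0.35, and let-7e-5p to let-7e-3p was -1.05 there and -0.33 in PGK alone. None of these passed. The first 4 were at the smallest possible p, with an adjusted p of 0.05 in E14 alone (exact permutation test). The same 4 ratios had an adjusted p of 0.04 in PGK alone (exact permutation test). miR-125a-3p to miR-99b-3p had an adjusted p of 0.2 in E14 alone, and in PGK alone it was 0.65 and passed (adjusted p = 0.04, exact permutation tests). let-7e-5p to let-7e-3p had an adjusted p of 0.08 in E14 and 0.2 in PGK (exact permutation tests).

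With 1 library left out in turn, PGK day 4 had 0 to 1 higher and 0 to 2 lower arms, PGK day 10 0 to 1 lower, E14 day 4 1 to 4 higher, day 10 against day 4 0 to 3 in PGK and 0 to 2 in E14, and the line mean 0 to 1. Ranges that crossed 0 were miR-99b-5p at PGK day 4 (-0.10 to 0.80), let-7e-3p at PGK day 10 (-1.09 to 0.0678), days 19 to 23 (-0.061 to 0.80) and 27 to 30 (-0.0331 to 0.49) and E14 day 4 (-0.0187 to 0.48), and let-7e-5p at late PGK (-0.29 to 0.22) and E14 days 19 to 23 (-0.13 to 0.11). The ratios miR-125a-5p to miR-99b-5p (-0.45 to -0.072), miR-125a-3p to miR-99b-3p (0.39 to 0.60) and let-7e-5p to let-7e-3p (-0.82 to -0.56) kept direction. Over all miRNAs, calls for E14 day 10 against day 4 numbered 66, and 19 with plain totals, 31 with E14 alone and 109 by DESeq2; for E14 days 19 to 23 against day 10 they numbered 2, and 0 with plain totals and 12 by DESeq2; for late E14 against days 19 to 23, DESeq2 gave 3. The difference between lines in the late change had 3, and 8 to 39 in 7 other settings. A group left with 1 library is assumed to vary like the others. The cause was not tested.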
